A study of Mus musculus with 4 samples.

Results

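The lambda light chain genes of peritoneal B cells were described in KO and WT mice, from the receptor contigs and from the expression counts of the same cells. The members were all contigs with chain IGL in the B-cell receptor (BCR) tables, and 6 genes of the expression tables, namely the constant genes Iglc1, Iglc2 and Iglc3 and the variable genes Iglv1, Iglv2 and Iglv3. IGL contigs numbered 1856 of 30763 contigs in the KO library and 801 of 13688 in the WT library. All 6 genes were present among the 32285 genes of each expression table and all had UMIs (unique molecular identifiers, counts of captured RNA molecules) in both libraries.

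The study sampled cells washed from the peritoneal cavity and sorted for CD45, a surface protein of immune cells. KO mice and WT mice were both given a high-fat diet from 4 weeks of age, for 3 months. Each genotype had 1 expression library and 1 BCR library made from 10x Genomics droplets, and the sources do not say how many mice went into it. With 1 library per genotype there was no replicate, so no test between KO and WT was possible, and every range in parentheses is a 95% interval that covers counting error only.

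Antibodies and B-cell receptors pair a heavy chain with a light chain, which is either kappa or lambda. In the mouse most B cells use kappa, and the kappa locus on chromosome 6 usually rearranges before the lambda locus on chromosome 16. The mouse lambda locus is small and holds few variable (V), joining (J) and constant (C) segments, each J lying just before its own C. The peritoneal cavity is rich in B-1 cells, self-renewing B cells that make much of the natural IgM, beside conventional B-2 cells.

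The expression libraries held 22516 barcodes with a median of 3298 UMIs in KO and 10087 barcodes with a median of 6362 UMIs in WT. After filtering, 18351 KO and 9305 WT barcodes were kept, of which 41.1% and 45.9% were B-1-like and 28.4% and 21.8% were B-2-like by marker genes. The BCR tables held 13673 KO and 6150 WT barcodes, and 1821 and 786 of them carried an IGL contig. The median IGL contig rested on 43 UMIs in KO and 67 in WT, close to the 44 and 70 of IGK contigs. The KO and WT BCR libraries shared 112 barcode sequences, of which 0 had the same heavy chain and 0 had lambda in both libraries.

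The junctions of the lambda chains are shown first, because nearly all of the lambda repertoire was made of a few of them. Each sequence below runs from the codon of the conserved cysteine of the V segment to that of the conserved phenylalanine of the J segment, which is the span the contig tables call CDR3. The germline ends were read from the GENCODE M21 transcripts of the mouse reference. Capitals mark the bases that match the end of the J segment, and lower case marks the rest.
IGLV1 germline end: tgtgctctatggtacagcaaccatttc
IGLV2 germline end: tgtgctctatggtacagcacccatttc
IGLV3 germline end: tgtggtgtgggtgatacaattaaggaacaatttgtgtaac
IGLJ1 germline start: CTGGGTGTTC
IGLJ2 germline start: TTATGTTTTC
IGLJ3 germline start: GTTTATTTTC
IGLV2-IGLJ2 main junction: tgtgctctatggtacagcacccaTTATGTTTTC
IGLV1-IGLJ1 main junction: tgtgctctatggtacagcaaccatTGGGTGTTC
IGLV1-IGLJ1 longer-V junction: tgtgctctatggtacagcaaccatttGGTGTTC
IGLV1-IGLJ1 whole-J junction: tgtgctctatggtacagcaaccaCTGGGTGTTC
IGLV1-IGLJ3 main junction: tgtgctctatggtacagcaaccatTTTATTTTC
IGLV3-IGLJ2 main junction: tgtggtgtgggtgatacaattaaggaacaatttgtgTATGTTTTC

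The IGLV2-IGLJ2 junction above made up 636 of the KO contigs of that combination (87.0%) and 293 of the WT contigs (82.1%). The IGLV3-IGLJ2 junction was as uniform, with 116 KO contigs (95.9%) and 48 WT contigs (96.0%). The main IGLV1-IGLJ1 junction accounted for less of its combination, at 337 KO contigs (47.1%) and 111 WT contigs (44.9%), with 128 and 57 contigs for the longer-V junction and 118 and 39 for the junction that keeps the whole J start. These IGLV1-IGLJ1 junctions differ only in where the V segment stops and the J segment starts. Across all combinations, 93.0% of KO and 96.5% of WT lambda junctions could be assembled from germline V and J bases with no further base. The whole set held 59 distinct IGL junctions in KO and 42 in WT, against 1165 and 890 distinct IGK junctions. The 10 commonest IGL junctions covered 91.6% of KO and 88.9% of WT IGL contigs, whereas the 10 commonest IGK junctions covered 13.4% and 19.97% of IGK contigs. Clones were therefore defined by the heavy chain.

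The V-J-C combinations followed the layout of the locus. In the GRCm38.p6 annotation the segments stand in the order Iglv2, Iglv3, Iglj2, Iglc2, Iglj4, Iglc4, Iglv1, Iglj3, Iglj3p, Iglc3, Iglj1, Iglc1. IGLV2-IGLJ2-IGLC2 was the commonest combination by contigs in each library, at 729 contigs in KO (39.3%) and 356 in WT (44.4%). IGLV1-IGLJ1-IGLC1 came next, at 715 KO contigs (38.5%, 36.3 to 40.8) and 247 WT contigs (30.8%, 27.7 to 34.2). With clones counted once this order turned in KO, to 35.3% for IGLV2-IGLJ2-IGLC2 and 41.6% for IGLV1-IGLJ1-IGLC1, while in WT they were at 39.5% and 33.5%. IGLV1-IGLJ3-IGLC3 followed with 238 contigs in KO (12.8%) and 111 in WT (13.9%), and IGLV3-IGLJ2-IGLC2 with 120 (6.47%) and 50 (6.24%). Joins of IGLV2 to the distant J segments were rare. IGLV2-IGLJ1-IGLC1 had 33 KO and 26 WT contigs, and IGLV2-IGLJ3-IGLC3 had 17 and 9.

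Lambda use was measured as the share of lambda-only barcodes among barcodes with exactly 1 heavy chain and a light chain of 1 kind. It was 1293 of 11180 in KO, or 11.6% (10.98 to 12.17), and 553 of 5366 in WT, or 10.3% (9.50 to 11.2), a ratio of 1.12 (1.02 to 1.23). Many barcodes belonged to the same heavy-chain clone, meaning barcodes of 1 library with identical heavy V gene, J gene and CDR3 nucleotides. In counts by clone, a clone with both lambda-only and kappa-only barcodes (10 in KO and 1 in WT) counted once for each kind. With every clone counted once, the lambda share was 798 of 6757 in KO (11.8%, 11.05 to 12.6) and 485 of 4108 in WT (11.8%, 10.8 to 12.8), a ratio of 1.0003 (0.900 to 1.11). The difference between genotypes in barcodes was thus not present in clones.

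The KO library had many more clones of exactly 2 barcodes than the WT library, and this touches every count of KO barcodes. Such clones were 33.9% of KO and 5.35% of WT clones, and among lambda-only clones 34.7% and 6.19%. Within lambda-only pairs, the logarithms of the expression UMI totals of the 2 barcodes had a correlation of 0.814 over 276 KO pairs and 0.469 over 26 WT pairs, as a description. The median ratio of the deeper to the shallower barcode was 1.18 in the KO lambda pairs and 1.15 in the WT lambda pairs. Barcodes in clones of 2 or more made up 65.7% of KO and 19.9% of WT lambda-only barcodes. Whether these KO pairs are sister cells or a trait of the library was not tested, and values per clone are given beside those per barcode for that reason.

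**Figure D1:**
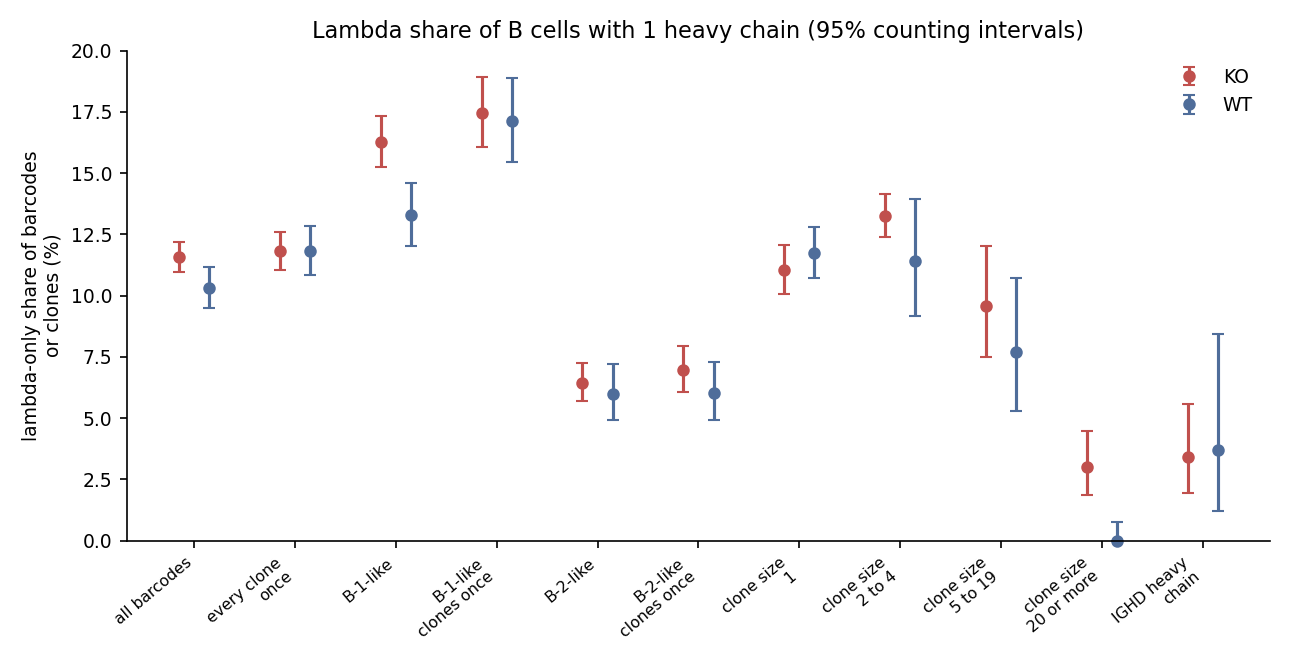
Lambda-only share (vertical axis, % of barcodes or clones with a light chain of 1 kind and 1 heavy chain) in KO (red) and WT (blue), for all barcodes, clones counted once, B-1-like and B-2-like cells, classes of clone size and IGHD heavy chains. Points are shares and bars are exact 95% counting intervals; B-1-like cells lie near 16.3% and 13.3% and B-2-like cells near 6.44% and 5.99%.

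Lambda use was higher in B-1-like than in B-2-like cells of each library, though it varied among the B-1-like clusters. B-1-like cells were lambda-only at 809 of 4969 in KO (16.3%, 15.3 to 17.3) and 375 of 2825 in WT (13.3%, 12.04 to 14.6). B-2-like cells were lambda-only at 251 of 3898 in KO (6.44%, 5.69 to 7.26) and 102 of 1704 in WT (5.99%, 4.91 to 7.22). With clones counted once, the B-1-like shares were 17.5% in KO and 17.1% in WT and the B-2-like shares were 6.97% and 6.03%, so the subsets were in the same order in clones. In B-1-like barcodes the KO to WT ratio was 1.23 (1.10 to 1.37), and in B-1-like clones it was 1.02 (0.897 to 1.16). Immunoglobulin genes were left out of the genes used for clustering, so the subset names do not rest on the light chain. Among B-1-like clusters the share of barcodes lay between 10.1% and 19.4% in KO and between 9.24% and 19.3% in WT. B-2-like clusters lay between 5.64% and 6.58% in KO and between 5.44% and 7.79% in WT. The B-1-like cluster with the highest score of B-1 over B-2 markers (2.48) had the lowest share in both libraries. The one with the lowest score (0.915) held 462 of the 809 KO lambda-only B-1-like cells, at 19.4%. The plot of shares by subset and clone size shows the 2 subsets apart in both libraries.

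The lambda V gene also differed between subsets. IGLV1 was carried by 71.7% of KO and 68.6% of WT lambda-only B-2-like cells, against 46.6% and 40.5% of lambda-only B-1-like cells. IGLV2 showed the opposite order, at 19.1% of KO and 24.5% of WT B-2-like cells, against 48.8% and 53.6% of B-1-like cells. IGLV3 was the least used, at 9.16% and 6.86% of B-2-like cells. Between genotypes, IGLV1 made up 52.2% of KO and 45.2% of WT lambda-only barcodes, a ratio of 1.15 (1.04 to 1.28), which was 1.12 (1.004 to 1.249) in clones. IGLV2 made up 42.2% of KO and 48.8% of WT barcodes, a ratio of 0.863 (0.776 to 0.960) and of 0.885 (0.776 to 1.01) in clones.

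By heavy-chain constant gene, lambda use was low in cells whose heavy contig was IGHD. IGHM contigs, which encode the IgM heavy chain, paired with lambda only in 1253 of 10580 KO barcodes (11.8%, 11.2 to 12.5) and 544 of 5167 WT barcodes (10.5%, 9.70 to 11.4). IGHD contigs, which encode the IgD heavy chain of mature naive B cells, did so in 15 of 438 KO barcodes (3.42%, 1.93 to 5.59) and 5 of 135 WT barcodes (3.70%, 1.21 to 8.43). Switched heavy chains (IgG and IgA) were few, with lambda in 22 of 137 KO barcodes (16.1%, 10.3 to 23.3) and 4 of 61 WT barcodes (6.56%, 1.82 to 15.9). The ratio for switched chains was 2.45 (0.882 to 6.80) in barcodes. Counted once per clone, switched chains had lambda in 20 of 99 KO clones (20.2%) and 4 of 59 WT clones (6.78%), a ratio of 2.98 (1.07 to 8.30), so the interval included 1 in barcodes but not in clones. Among them IGHG2B, an IgG heavy chain, had lambda in 8 of 50 KO and 1 of 21 WT barcodes.

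Among barcodes, the lambda share was lowest in the clones of 20 or more. Lambda-only barcodes were 433 of 3925 KO barcodes that stood alone (11.03%, 10.1 to 12.1) and 439 of 3739 in WT (11.7%, 10.7 to 12.8). In clones of 2 to 4 barcodes the share was 13.2% in KO and 11.4% in WT, and in clones of 5 to 19 it was 9.59% and 7.69%. In clones of 20 or more it was 22 of 737 in KO (2.99%, 1.88 to 4.48) and 0 of 496 in WT. Members of a clone share their heavy chain and mostly their light chain, so these barcodes are not independent. Counted per clone, lambda was carried by 1 of 14 KO clones of that size (7.14%, 0.181 to 33.9) and 0 of 6 WT clones (exact interval up to 45.9%), and by 11 of 94 KO (11.7%) and 6 of 49 WT clones (12.2%) of 5 to 19 barcodes.

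Lambda use varied widely with the heavy-chain V gene, and in a similar order in the 2 libraries. Across the 43 V genes with at least 40 barcodes in each library, the lambda share ran between 0.637% and 38.8% in KO (median 10.5%) and between 0% and 39.3% in WT (median 8.11%). The KO and WT shares had a Pearson r of 0.860 and a Spearman rho of 0.820 over these genes, and 0.877 and 0.805 with clones counted once, given as a description since the genes share their libraries. Above its own library's share in both libraries were 15 V genes, and 22 were below it in both.

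**Figure D2:**
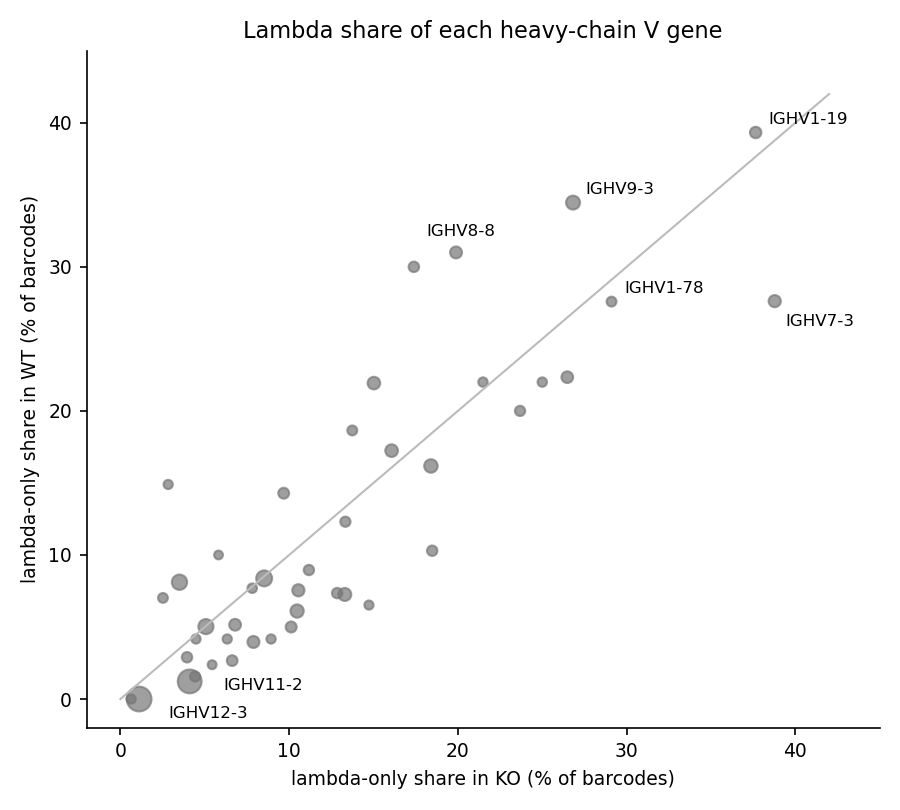
Lambda-only share of each of 43 heavy-chain V genes in KO (horizontal axis, % of barcodes) and WT (vertical axis, % of barcodes), with point area growing with the number of barcodes and a line of equal shares. IGHV1-19 stands at the top right (37.6% in KO, 39.3% in WT) and IGHV12-3 and IGHV11-2 at the bottom left.

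By the unweighted mean of the 2 libraries, the highest shares belonged to IGHV1-19, IGHV7-3, IGHV9-3, IGHV1-78 and IGHV8-8. IGHV1-19 was lambda-only in 64 of 170 KO barcodes (37.6%) and 35 of 89 WT barcodes (39.3%). IGHV7-3 followed with 114 of 294 in KO (38.8%) and 29 of 105 in WT (27.6%), and IGHV9-3 with 103 of 384 (26.8%) and 51 of 148 (34.5%). IGHV1-78 had 39 of 134 in KO (29.1%) and 16 of 58 in WT (27.6%). These genes come from the families IGHV1, IGHV7, IGHV8 and IGHV9. As a whole, family IGHV9 stood at 23.1% in KO and 29.0% in WT and family IGHV7 at 23.9% and 18.0%, while the large family IGHV1 was at 10.4% and 10.1%.

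At the low end of the same mean stood IGHV7-1, IGHV12-3, IGHV11-2, IGHV1-52 and IGHV1-39. IGHV12-3 and IGHV11-2 are the heavy-chain V genes of the classical B-1 receptors that bind phosphatidylcholine, and they recur in peritoneal B-1 cells of many mice. Whether the lambda-only cells with these heavy chains bind it was not tested. IGHV12-3 was lambda-only in 8 of 722 KO barcodes (1.11%) and 0 of 535 WT barcodes, or in 1 of 144 KO clones and 0 of 178 WT clones (exact interval up to 2.05%). IGHV11-2 was lambda-only in 22 of 536 KO barcodes (4.10%) and 6 of 491 WT barcodes (1.22%), but in 1 of 42 KO clones and 2 of 45 WT clones. IGHV7-1 had 1 of 157 barcodes in KO and 0 of 48 in WT, which allows up to 6.25%, while IGHV7-3 of the same family was among the highest. With IGHV11-2 and IGHV12-3 left out, a choice made after seeing the data, the lambda share of barcodes was 12.7% in KO and 12.6% in WT, and that of B-1-like barcodes 19.8% and 18.3%.

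Among the 43 V genes, 5 had a KO to WT ratio of barcodes whose interval excluded 1. IGHV5-16 was lambda-only in 20 of 115 KO barcodes and 21 of 70 WT barcodes, a ratio of 0.580 (0.339 to 0.990), and of 0.796 (0.364 to 1.74) in clones. IGHV2-9 was at 3 of 106 in KO (2.83%) and 7 of 47 in WT (14.9%), a ratio of 0.190 (0.0514 to 0.703) in barcodes and 0.110 (0.0140 to 0.864) in clones. IGHV3-6 was at 3.50% in KO and 8.11% in WT, a ratio of 0.432 (0.218 to 0.855) in barcodes and 0.471 (0.223 to 0.995) in clones. IGHV8-8 was at 36 of 181 in KO (19.9%) and 31 of 100 in WT (31.0%), a ratio of 0.642 (0.424 to 0.970), and of 0.662 (0.401 to 1.09) in clones. IGHV11-2 had a ratio of 3.36 (1.37 to 8.21) in barcodes and 0.536 (0.0504 to 5.69) in clones. In clones the interval thus included 1 for IGHV5-16, IGHV8-8 and IGHV11-2. IGHV6-3 was the reverse, with a ratio of 1.83 (0.928 to 3.62) in barcodes and 2.38 (1.08 to 5.21) in clones. Family IGHV6 as a whole was at 12.3% in KO and 6.67% in WT, a ratio of 1.85 (1.11 to 3.08) and of 2.07 (1.14 to 3.74) in clones. These genes were picked from the 43 by their intervals, which were not adjusted for the number compared.

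The lambda V gene was also counted within single heavy V genes. IGHV1-78 used IGLV2 in 28 of its 39 lambda-only KO barcodes and 15 of 16 in WT. IGHV9-3 used IGLV2 in 48 of 103 barcodes in KO, where 42 carried IGLV1, and in 32 of 51 in WT. IGHV1-19 used IGLV1 in 39 of 64 in KO and 23 of 35 in WT. In IGHV7-3 the commoner lambda V gene was not the same in the 2 libraries, with IGLV2 in 64 of 114 KO barcodes (39 of 63 clones) and IGLV1 in 19 of 29 WT barcodes (18 of 27 clones). IGLV3 was rare overall but was carried by 17 of 67 KO and 7 of 21 WT lambda-only barcodes of IGHV5-17. IGHV5-16 used IGLV2 in 20 of 21 WT barcodes but in 11 of 20 in KO, where 7 carried IGLV3.

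By heavy J segment, lambda use was lowest with IGHJ1, at 8.33% of KO and 5.27% of WT barcodes, and highest with IGHJ4, at 14.4% and 15.4%. With clones counted once the shares of the 4 J segments lay between 11.01% (IGHJ1) and 12.99% (IGHJ4) in KO, and between 9.51% (IGHJ1) and 15.06% (IGHJ3) in WT, where IGHJ4 was at 14.29%. The median heavy CDR3 length was 39 nucleotides in lambda-only and kappa-only barcodes of both libraries.

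The largest lambda clone was shared by KO and WT. Its heavy and light CDR3 sequences are given below, with that of the largest WT lambda clone and of a clone found in both libraries, because they show which lambda receptors recurred. Heavy sequences are from chromosome 12 and lambda sequences from chromosome 16, and capitals in the lambda sequence mark the J-matched bases.
IGHV11-2-IGHJ1 heavy CDR3: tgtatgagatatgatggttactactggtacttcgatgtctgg
its lambda partner IGLV2-IGLJ2: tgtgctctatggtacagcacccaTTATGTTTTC
IGHV1-12-IGHJ4 heavy CDR3: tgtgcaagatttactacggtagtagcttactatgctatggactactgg
IGHV5-6-IGHJ3 heavy CDR3: tgtgcaagactaactgggtttgcttactgg

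The IGHV11-2-IGHJ1 clone held 22 lambda-only barcodes in KO and 5 in WT. Of those kept in the expression libraries, 16 of 18 KO barcodes and 5 of 5 WT barcodes were B-1-like. The IGHV1-12-IGHJ4 clone held 1 barcode in KO and 6 in WT, and the IGHV5-6-IGHJ3 clone held 2 and 5, each with the same IGLV2-IGLJ2 junction. The other 4 largest KO clones, of IGHV12-3, IGHV5-9-1, IGHV6-3 and IGHV7-3, held between 6 and 8 barcodes and were not seen in WT. Of these, the IGHV7-3 clone used IGLV1-IGLJ1 and the others IGLV2-IGLJ2. In all, 12 pairs of heavy and lambda CDR3 were found in both libraries, which is 1.49% of 808 KO pairs and 2.44% of 491 WT pairs. For kappa, 96 pairs were shared, or 1.55% of KO and 2.56% of WT pairs.

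Barcodes with both IGK and IGL were uncommon. Among barcodes with exactly 1 heavy chain and any light chain they were 136 of 11316 in KO (1.20%, 1.01 to 1.42) and 79 of 5445 in WT (1.45%, 1.15 to 1.80). They made up 1.45% of KO and 2.05% of WT B-1-like cells, and 0.764% and 0.467% of B-2-like cells. Neither chain was a trace in the typical barcode, since lambda gave a median of 51.2% of the light-chain UMIs in KO and 53.8% in WT. Among barcodes with 2 heavy chains the share with IGK and IGL was far higher, at 311 of 1685 in KO (18.5%) and 129 of 558 in WT (23.1%).

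Barcodes with both IGK and IGL had a median doublet score of 0.0786 in KO and 0.0809 in WT. In barcodes with a light chain of 1 kind it was 0.0557 and 0.0572. The median depth of barcodes with both was 4091.5 UMIs in KO and 7862 in WT, against 3137 and 6478. Of the dual B cells, 70.9% in KO and 88.1% in WT were B-1-like. Within B-1-like cells the depths were 3891 against 3695 in KO and 7862 against 7807 in WT. Within B-2-like cells they were 2225 against 2033.5 and 4484.5 against 3763. The doublet scores in B-1-like cells were 0.0697 against 0.0526 in KO and 0.0756 against 0.0625 in WT. The same kappa and lambda pair recurred in at least 2 barcodes of a clone in 32 KO cases (76 barcodes) and 3 WT cases (7 barcodes), and the KO library is the one with many clones of exactly 2 barcodes. The part of doublets and of these paired barcodes in the dual-light-chain barcodes was not tested. Clones with lambda-only and kappa-only barcodes on the same heavy chain numbered 10 in KO and 1 in WT.

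In the expression libraries the variable genes marked lambda-only cells, while the constant genes were also well detected in kappa-only cells. Levels are given as CPM, the UMIs of a gene summed over the barcodes of a group and scaled to the group's UMI total, and are compared between groups for each gene, not between genes. Iglv1, the V segment nearest to Iglc3 and Iglc1, was at 7009 CPM in KO and 5468 CPM in WT lambda-only cells, against 119 and 129 CPM in kappa-only cells. Iglv2 was at 4279 CPM in KO and 4107 CPM in WT lambda-only cells, against 18.4 and 13.6 CPM in kappa-only cells. Iglv3 was at 435 CPM in KO and 431 CPM in WT lambda-only cells, against 39.8 and 23.4 CPM. Each variable gene was thus at least 10 times as high in lambda-only as in kappa-only cells of both libraries.

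Of the constant genes, Iglc1 was higher and Iglc2 and Iglc3 were lower in lambda-only than in kappa-only cells of both libraries when the subsets were pooled. Iglc1 was at 326 CPM in KO and 329 CPM in WT lambda-only cells, against 229 and 241 CPM in kappa-only cells. Iglc2 was at 1516 CPM in KO and 1212 CPM in WT lambda-only cells, against 1692 and 1532 CPM in kappa-only cells. Iglc3 was at 435 CPM in KO and 406 CPM in WT lambda-only cells, against 738 and 704 CPM in kappa-only cells. Within B-2-like cells Iglc2 was at 1413 CPM in KO lambda-only and 1420 CPM in KO kappa-only cells, and at 1224 and 1330 CPM in WT. Within B-1-like cells it was at 1540 and 1824 CPM in KO and at 1215 and 1597 CPM in WT. Iglc1 was at 337 and 277 CPM in KO B-1-like cells and at 279 and 130 CPM in KO B-2-like cells. In WT it was at 334 and 269 CPM and at 309 and 152 CPM. The GENCODE M21 transcripts of Iglc2 and Iglc3 were identical at 94.9% of aligned bases and that of Iglv1 and Iglv2 at 96.3%, so how the authors' counting divided reads within each of these pairs is uncertain.

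**Figure D3:**
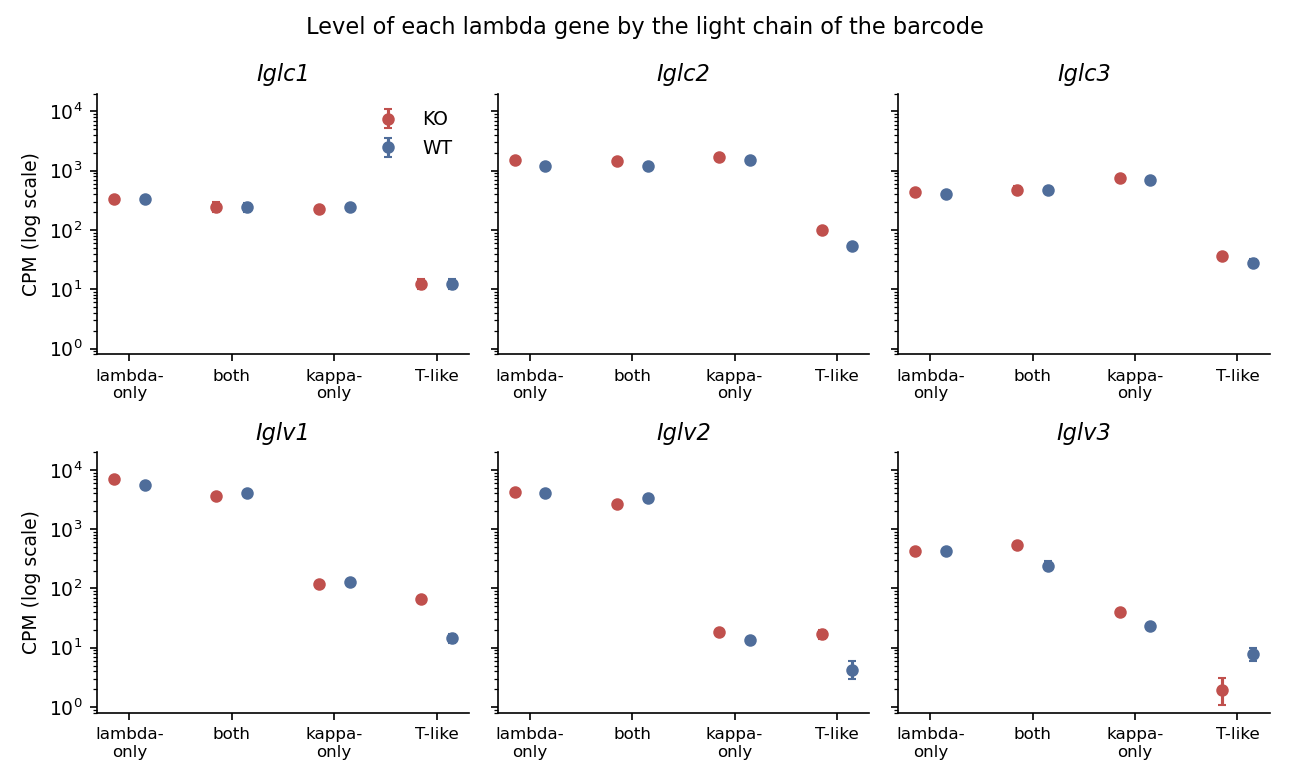
Level of each of the 6 lambda genes (vertical axis, CPM on a log scale) in lambda-only, dual-light-chain and kappa-only B cells and in T-like cells of KO (red) and WT (blue), with 95% Poisson intervals. The 3 constant genes (upper row) are present in all B-cell groups, with Iglc3 lower in lambda-only cells (435 and 406 CPM) than in kappa-only cells (738 and 704 CPM), and the 3 variable genes (lower row) are high only where a lambda contig was found.

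T-like cells, which should not transcribe these genes, were taken as the background. Iglc2 was at 99.0 CPM in KO and 53.9 CPM in WT T-like cells and Iglv1 at 65.5 and 14.4 CPM. Macrophage-like cells stood higher, with Iglc2 at 206 CPM in KO and 241 CPM in WT and Iglv1 at 199 and 62.7 CPM. In dendritic-like cells Iglc2 was at 254 CPM in KO and 344 CPM in WT and Iglv1 at 109 and 206 CPM. A UMI of Iglc2 was found in 93.0% of KO and 97.7% of WT lambda-only cells, 91.8% and 96.9% of kappa-only cells, and 12.02% and 6.24% of T-like cells. A UMI of Iglv1 was found in 78.1% of KO and 75.5% of WT lambda-only cells, 8.46% and 9.22% of kappa-only cells, and 4.18% and 2.10% of T-like cells. The median depths behind these shares were 3106 UMIs in KO and 6876 in WT for lambda-only, 2827.5 and 5844 for kappa-only, and 2201 and 4363.5 for T-like cells. With each barcode thinned to 1000 UMIs, Iglc2 was found in 72.3% of KO and 63.8% of WT lambda-only cells and 74.4% and 70.9% of kappa-only cells, and Iglv1 in 74.95% and 70.5% and in 4.17% and 3.28%. The constant genes were thus far above the T-like level in kappa-only cells, whereas Iglv1 in kappa-only cells came closer to it. In each library the Iglv1 level of kappa-only cells lay between those of macrophage-like and dendritic-like cells.

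Between genotypes, lambda-only cells of KO had more Iglv1, with a KO to WT ratio of 1.28 (1.26 to 1.31), and more Iglc2, with a ratio of 1.251 (1.20 to 1.30). The ratio was 1.04 (1.02 to 1.07) for Iglv2, 1.07 (0.995 to 1.15) for Iglc3, 0.992 (0.913 to 1.08) for Iglc1 and 1.01 (0.940 to 1.08) for Iglv3. Within cells of a single contig, Iglv1 was at 11627 CPM in KO and 9179 CPM in WT for IGLV1-IGLJ1-IGLC1. For IGLV1-IGLJ3-IGLC3 it was at 11025 and 9693 CPM. Iglv2 was at 9595 CPM in KO and 7810 CPM in WT IGLV2-IGLJ2-IGLC2 cells, but at 5689 and 6324 CPM in the 19 and 10 IGLV2-IGLJ1-IGLC1 cells. IGLV1 also had a larger share among KO lambda contigs, and the part of that share in the Iglv1 ratio was not tested. Iglv1 was at 7036 CPM in KO and 5242 CPM in WT B-1-like lambda-only cells, and at 6904 and 7001 CPM in B-2-like ones.

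The variable gene named by a cell's contig was mostly its lambda V gene with the most UMIs in the expression data. For cells with a single IGLV1 contig this held in 570 of 572 KO cells (99.7%) and 225 of 226 WT cells (99.6%). For IGLV2 it held in 398 of 449 KO cells (88.6%) and 217 of 242 WT cells (89.7%), and for IGLV3 in 45 of 59 (76.3%) and 23 of 30 (76.7%). The constant gene of the contig seldom had the most UMIs, in 25 of 444 KO and 11 of 172 WT cells for IGLC1 and in 10 of 163 and 5 of 72 cells for IGLC3. For IGLC2 it had the most in 304 of 473 KO cells (64.3%) and 190 of 254 WT cells (74.8%). Summed over cells, Iglc2 had more UMIs than Iglc1 or Iglc3 for each of IGLC1, IGLC2 and IGLC3 contigs, and the 3 reference transcripts are of similar length (454 bases for Iglc1, 458 for Iglc2 and 452 for Iglc3). A typical lambda-only cell with a single contig had few such UMIs, with a median total over the 3 genes of 6 to 9 in KO and 9 to 14.5 in WT.

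The level of each constant gene did shift with the contig's rearrangement, and the differences given here had the same direction in KO and WT. Iglc1 was highest in cells with IGLV2-IGLJ1-IGLC1 contigs, at 486 CPM in KO and 451 CPM in WT, and in cells with IGLV1-IGLJ1-IGLC1 contigs, at 387 and 376 CPM, against 229 and 241 CPM in kappa-only cells. Iglc3, which lies between Iglv1 and Iglj1, was lowest in IGLV1-IGLJ1-IGLC1 cells, at 276 CPM in KO and 287 CPM in WT, and in IGLV2-IGLJ1-IGLC1 cells, at 302 and 225 CPM, against 738 and 704 CPM in kappa-only cells. In IGLV1-IGLJ3-IGLC3 cells, whose own constant gene it is, Iglc3 was at 491 CPM in KO and 532 CPM in WT. Iglc2, which lies between Iglv3 and Iglv1, was lower in cells with IGLV2 or IGLV3 contigs, at 1318 CPM in KO and 1078 CPM in WT for IGLV2-IGLJ2-IGLC2, than in IGLV1-IGLJ1-IGLC1 cells, at 1763 and 1443 CPM. It was lowest in IGLV2-IGLJ1-IGLC1 cells, at 788 CPM in KO and 706 CPM in WT, though these were only 19 KO and 10 WT barcodes.

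**Figure D4:**
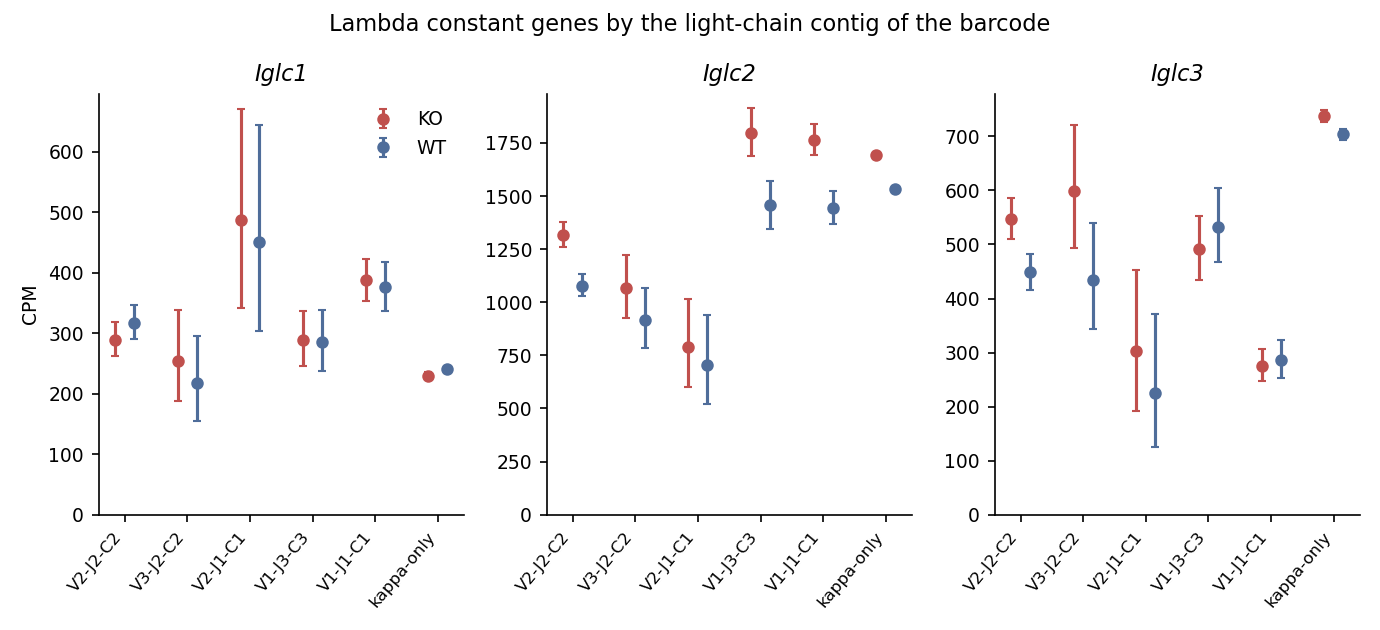
Level of the 3 lambda constant genes (vertical axes, CPM) in B cells grouped by the V-J-C combination of their lambda contig, with kappa-only cells at the right of each panel, in KO (red) and WT (blue) with 95% Poisson intervals. Iglc3 is lowest in cells with contigs joined to IGLJ1 and highest in kappa-only cells, and Iglc2 is lowest in cells with IGLV2-IGLJ1-IGLC1 contigs.

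Cells with an IGLV2 contig also held Iglv1 UMIs. In IGLV2-IGLJ2-IGLC2 cells Iglv1 was at 2542 CPM in KO and 2649 CPM in WT, and 53.1% and 57.4% of these cells had a UMI of it. In IGLV2-IGLJ1-IGLC1 cells, Iglv1 was at 526 CPM in KO and 1532 CPM in WT. In dual-light-chain cells Iglv1 was at 3613 CPM in KO and 4030 CPM in WT and Iglv2 at 2663 and 3409 CPM, between the lambda-only and kappa-only levels. Iglv1 was also at 2604 CPM in KO and 1789 CPM in WT IGLV3-IGLJ2-IGLC2 cells, and the Iglv1 and Iglv3 transcripts were identical at 54.7% of aligned bases. In IGLV1-IGLJ1-IGLC1 cells Iglv2 was at 212 CPM in KO and 90.4 CPM in WT. Whether reads of the near-identical Iglv1 and Iglv2 were counted to each other was not tested.

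Outside the immunoglobulin genes, lambda-only and kappa-only B cells were close to each other, and the clearest difference was next to the kappa locus. A gene was called when it reached 50 CPM, the log2 of its lambda-only to kappa-only ratio lay beyond 0.32 in size and its counting interval excluded a ratio of 1 on the same side in both libraries, with immunoglobulin genes left out of the totals. Gm30211, a long noncoding RNA gene that is the first gene after the kappa constant gene Igkc in the RefSeq annotation of GRCm38.p6, was at 52.0 CPM in KO lambda-only and 243 CPM in KO kappa-only cells, a ratio of 0.214 (0.184 to 0.247). In WT it was at 49.0 and 224 CPM, a ratio of 0.218 (0.185 to 0.255). Rpia, the second gene after Igkc, encodes ribose-5-phosphate isomerase of the pentose phosphate pathway and was at 26.7 CPM in KO lambda-only and 59.3 CPM in KO kappa-only cells, a ratio of 0.450 (0.363 to 0.553). In WT it was at 35.8 and 64.5 CPM, a ratio of 0.555 (0.456 to 0.670). Eif2ak3, the fourth gene after Igkc and the gene of the stress kinase PERK, was not called, at ratios of 0.904 (0.810 to 1.01) in KO and 0.924 (0.823 to 1.03) in WT. Both neighbours were lower in lambda-only cells of each subset, with Gm30211 at ratios of 0.242 in KO and 0.238 in WT B-1-like cells and 0.194 and 0.201 in B-2-like cells. With all B cells pooled, none of the genes found in the tables among the 10 on either side of the lambda locus reached 50 CPM.

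Within B-1-like cells, 809 KO and 375 WT lambda-only cells were set against 4160 and 2450 kappa-only cells. Of 2545 genes tested, 7 were higher in lambda-only cells (0.275%) and 15 were lower (0.589%), or 0.864% in either direction. Of the 7 higher ones, Sdf2l1, Pdia6, Manf and Hspa5 belong to the list of antibody secretion and unfolded protein response genes. Sdf2l1, a chaperone cofactor, was at 105 CPM in KO lambda-only and 50.8 CPM in KO kappa-only cells (ratio 2.06), and at 90.5 and 65.9 CPM in WT (ratio 1.37). Pdia6, a disulfide isomerase, had ratios of 1.501 in KO and 1.33 in WT, and Manf, a stress-induced secreted factor, ratios of 1.33 and 1.37. Hspa5, the chaperone BiP that holds unpaired heavy chains, had ratios of 1.35 in KO and 1.26 in WT. The genes outside the list were Dnajc3, a co-chaperone (1.35 and 1.34), Dusp2, a MAP kinase phosphatase (1.32 and 1.51), and Serpinb1a, a protease inhibitor (1.26 and 1.37).

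Of the list of antibody secretion and unfolded protein response genes, 13 of 18 members were measured at this level in B-1-like cells, and 4 of them were higher and 0 lower. The list's median log2 ratio was 0.28 in KO and 0.0014 in WT, beside -0.0012 in KO and 0.0012 in WT over all genes tested. No member of it was called among 14 measured in B-2-like cells, where Sdf2l1 had ratios of 1.45 in KO and 1.30 in WT. Of the B-cell receptor signalling list, 20 members were measured in B-1-like cells and 22 in B-2-like cells, and 0 were called in either. The same held for the 8 and 9 measured members of the MHC class II list. Over all genes tested, 0.864% were called in B-1-like and 0.86% in B-2-like cells, so 0 calls in lists this small is near that share. Of the list of recombination and surrogate light chain genes, which act when the light chain is made, 0 of 13 reached the level in B-1-like cells and only Vpreb3, a chaperone-like surrogate chain relative, did in B-2-like cells. Marker lists of T cells, NK cells, macrophages and dendritic cells had 0 members at 50 CPM in these groups.

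The genes lower in lambda-only B-1-like cells included 3 of the 12 measured members of the B-1 identity list. Zcwpw1, a histone-mark reader, was at 57.6 CPM in KO lambda-only and 157 CPM in KO kappa-only cells and at 42.4 and 138 CPM in WT, ratios of 0.365 and 0.307. Cd9, a tetraspanin, had ratios of 0.690 in KO and 0.630 in WT, and Anxa2, an annexin, 0.738 and 0.753. Both Cd9 and Anxa2 were also among the markers that named the subsets, so they are not independent of the grouping. Other called genes were 1810046K07Rik (0.493 and 0.496), the membrane protein gene Ms4a6c (0.607 and 0.653) and Tent5c, a poly(A) polymerase (0.690 and 0.728). Cfp, the complement factor properdin (0.697 and 0.751), and Ccnd2, a cyclin (0.785 and 0.763), were also called. Zcwpw1 and 1810046K07Rik were among the leading genes of the B-1-like cluster with the lowest lambda share, 10.1% in KO and 9.24% in WT. The part of cluster makeup in these ratios was not tested. When barcodes with IGHV11-2 or IGHV12-3 were left out, a setting chosen after seeing the data, 0 members of the B-1 identity list were called and Zcwpw1 stood at 0.909 in KO and 0.613 in WT. In that setting 2566 genes were tested, with 3 called higher (0.117%), namely Manf, Pdia6 and Dnajc3, and 2 called lower (0.0779%), namely Gm30211 and Rpia, or 0.195% in either direction.

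**Figure D5:**
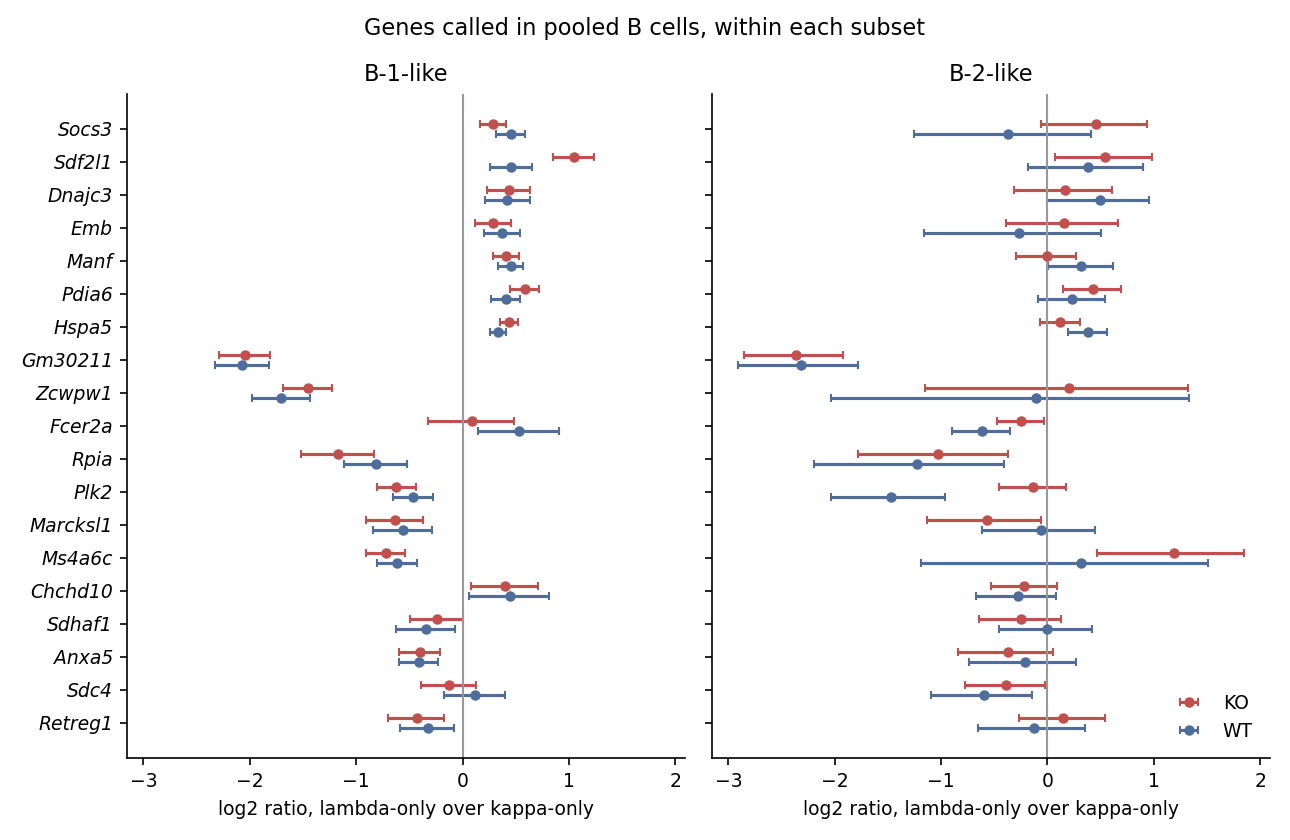
Log2 ratio of lambda-only to kappa-only expression (horizontal axes) of the 19 genes called with all B cells pooled, within B-1-like (left) and B-2-like cells (right), in KO (red) and WT (blue) with 95% counting intervals. Gm30211 and Rpia lie below 0 in both subsets, and Fcer2a and Chchd10 lie above 0 in B-1-like cells although they were lower in the pooled comparison.

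Within B-2-like cells, 251 KO and 102 WT lambda-only cells were set against 3647 and 1602 kappa-only cells. Of 2792 genes tested, 10 were higher (0.358%) and 14 lower (0.501%). S100a6, a calcium-binding protein of the B-1 identity list, was at 1029 CPM in KO lambda-only and 667 CPM in KO kappa-only cells (ratio 1.54), and at 953 and 634 CPM in WT (ratio 1.504). It was the 1 called among the 4 measured members of that list. Anxa2 had ratios of 0.841 in KO and 1.08 in WT, Apoe 0.996 and 1.65, and Nfatc1 1.13 and 0.860. S100a6, Anxa2 and Nfatc1 were also among the markers that named the subsets. The B-2 and follicular genes had 14 measured members and 0 called, with a median log2 ratio of -0.19 in KO and -0.25 in WT, beside -0.02 and -0.03 over all genes tested. Zeb2, a transcription factor, had ratios of 1.72 in KO and 2.36 in WT, Ptprj, a receptor phosphatase, 1.46 and 1.43, and Plac8 1.29 and 1.40. For Zeb2, 23.3% of the 43 UMIs of KO lambda-only cells came from a single barcode, and WT lambda-only cells had 28 UMIs. Among the lower genes were Stat4, a cytokine signal transducer (0.729 and 0.573), Tgfb1, a growth factor (0.746 and 0.752), and Nr4a1, an orphan receptor induced by antigen-receptor signals (0.788 and 0.779). Called in both subsets were 0 of the higher genes and 2 of the lower ones, Gm30211 and Rpia, which is 2 of 15 in B-1-like and 2 of 14 in B-2-like cells.

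With all B cells pooled, 2611 genes were tested, 7 were higher (0.268%) and 12 lower (0.46%) in lambda-only cells. The pooled groups differed in makeup, since 76.2% of KO and 78.0% of WT lambda-only cells were B-1-like, against 53.2% and 60.2% of kappa-only cells. Fcer2a, the B-2 marker CD23, was lower in the pooled lambda-only cells at ratios of 0.550 in KO and 0.540 in WT, but stood at 1.06 and 1.45 within B-1-like cells and 0.842 and 0.652 within B-2-like cells. Socs3, an inhibitor of cytokine signalling, was higher in the pooled cells at 1.41 in KO and 1.45 in WT, and stood at 0.964 and 0.939 in B-1-like cells without IGHV11-2 and IGHV12-3. Of these 19 genes (0.728%), 13 were called in B-1-like cells and 3 in B-2-like cells.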

How the data were processed

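The deposited expression files hold raw UMI counts per gene and barcode and the deposited BCR tables hold read and UMI counts per contig, made by the authors with Cell Ranger, 6.1.2 per the file headers and 6.0.1 per the submitters' processing notes, which also name Seurat 4.3.0 and build mm39. Coordinates are therefore not given. The labels name a 3′ kit, although V segments were abundant, so the transcript end that was read is uncertain. The gene knocked out is not reported here.

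Barcodes were kept if they had 200 or more genes and less than 10% mitochondrial UMIs. Scrublet's automatic threshold marked 0 doublets in each library, so the highest-scoring barcodes were removed at up to 0.8% per 1000 barcodes, which was 17.8% in KO and 7.12% in WT. Both libraries were clustered together (scanpy 1.11.5, leidenalg 0.10.2, 2000 variable genes without immunoglobulin genes, 30 components, 15 neighbours, resolution 1) and clusters were named from fixed markers. IGL, IGK and IGH contigs were counted per barcode, all productive as deposited.

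Shares carry Clopper-Pearson intervals, CPM Poisson intervals and ratios of CPM exact conditional binomial intervals (scipy 1.17.1). Ratios of shares carry log-normal intervals. For the share of 0 of IGHV7-1 in WT the limit is that of 3 counts, and the other limits given for a share of 0 are exact. In data simulated with counting error only, the call rule recovered 100% of 200 genes changed 1.5-fold and called 0% of the unchanged genes. Spread between cells and clones was not simulated, so this gives no rate of false calls for the real groups. Named genes were the 6 lambda genes, up to 10 called genes per direction, up to 3 members per list, the 5 highest and 5 lowest heavy V genes and the 5 largest lambda clones per library. Other heavy V genes named for a difference between genotypes or for their lambda V gene, and the genes next to the kappa locus, were chosen after their values were seen. Members and lists were chosen with earlier results of these data known. Alternatives covered clones counted once, contig filters, doublet removal, CPM minimum and subset.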

Additional observations from a re-analysis of the deposited data

Results flagged for a closer look

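Some genes had lambda-only to kappa-only ratios on opposite sides of 1 in the 2 subsets, in KO and WT alike, and this difference between subsets was not tested. For S100a6 and Odc1 the counting intervals of all 4 ratios excluded 1, and for each of the other genes named here at least 1 interval included it. Dusp2 had lambda-only to kappa-only ratios of 1.32 in KO and 1.51 in WT B-1-like cells and of 0.886 and 0.819 in B-2-like cells. Serpinb1a had ratios of 1.26 and 1.37 in B-1-like cells and of 0.791 and 0.863 in B-2-like cells. Tagap, a GTPase-activating protein, had 1.11 and 1.10 in B-1-like cells and 0.656 and 0.736 in B-2-like cells, and Smchd1, a chromatin protein, 1.08 and 1.03 against 0.712 and 0.755.

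S100a6 had ratios of 0.935 in KO and 0.920 in WT B-1-like cells and of 1.54 and 1.504 in B-2-like cells. Bri3bp had 0.972 and 0.998 in B-1-like cells and 1.53 and 1.5 in B-2-like cells, and Ptprj 0.954 and 0.847 against 1.46 and 1.43. Stoml2, a mitochondrial membrane protein, had 0.865 and 0.908 in B-1-like cells and 1.38 and 1.44 in B-2-like cells. Odc1, the first enzyme of polyamine synthesis, had 0.716 and 0.881 against 1.29 and 1.40.

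Lambda contigs also appeared outside the comparisons. Barcodes with an IGL contig and no heavy chain numbered 38 in KO (2.09%) and 11 in WT (1.40%). Barcodes with an IGL contig that were not in the expression library numbered 26 and 18, and T-like barcodes with an IGL contig 15 and 6.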

How the results depend on the processing

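Of the main values recomputed under an alternative, 90 kept their call or stayed near the reported value, 35 moved and 1 changed direction. Single-gene values were counted per gene, library and setting, for the 19 pooled called genes and the named heavy V genes. Of these values, 216 kept their call or stayed near the reported value, 87 lost the call, 2 moved and 19 changed direction. The most genes to change direction in any setting were 6 of the 19, in B-2-like cells. The KO to WT ratio of the lambda share was 1.12 as reported, 1.0003 with clones counted once, 1.01 without IGHV11-2 and IGHV12-3 and 0.940 among barcodes of clones seen once, where KO fell below WT. The KO lambda share was 10.6% with any number of heavy chains, 12.6% with dual cells counted as lambda, 12.7% without IGHV11-2 and IGHV12-3, 16.3% in B-1-like and 6.44% in B-2-like cells. The WT share was 11.8% with clones counted once, 11.6% with dual cells counted as lambda, 12.6% without IGHV11-2 and IGHV12-3, 13.3% in B-1-like and 5.99% in B-2-like cells, and 11.7% among clones seen once. The settings by heavy V gene, subset and clones seen once were chosen after seeing the data. With clones counted once, the WT IGHM share was 12.2%, IGLV1-IGLJ1-IGLC1 was 41.6% in KO, and IGLV2-IGLJ2-IGLC2 was 35.3% in KO and 39.5% in WT. The WT share in clones of 5 to 19 was 4.89% among kept barcodes, and with any number of heavy chains barcodes with IGK and IGL were 3.44% in KO and 3.46% in WT. With clones counted once, the lambda-only to kappa-only ratios were 1.52 in KO and 1.49 in WT for Iglc1, 0.923 and 0.848 for Iglc2, 54.6 and 54.2 for Iglv1, 175 and 249.9 for Iglv2, and 13.1 in KO for Iglv3. Pooled called genes numbered 7 higher and 12 lower as reported, 4 higher without doublet removal, 11 higher and 34 lower at 20 CPM, 33 lower with 1 barcode per clone, and 3 higher and 2 lower in B-1-like cells without IGHV11-2 and IGHV12-3. The cause of these moves was not tested. Of the 19 genes, 12 were still called with 1 barcode per clone and 12 without doublet removal.

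Some pooled genes had ratios on the other side of 1 in a subset or setting, and only the intervals of Chchd10 in B-1-like cells of both libraries, Fcer2a in WT B-1-like cells and Ms4a6c in KO B-2-like cells excluded 1. In B-1-like cells Chchd10 was at 1.32 in KO and 1.36 in WT (1.11 and 1.08 without IGHV11-2 and IGHV12-3), Fcer2a at 1.06 and 1.45 (1.08 in WT without them), Sdc4 at 1.09 in WT and Socs3 at 0.964 and 0.939 without them. In B-2-like cells Ms4a6c was at 2.28 in KO and 1.24 in WT, Manf at 0.995, Retreg1 at 1.11 and Zcwpw1 at 1.15 in KO, and Emb at 0.830 and Socs3 at 0.776 in WT. With 1 barcode per clone Ms4a6c was at 1.01 in KO and 1.02 in WT. No paired analysis was possible because each genotype had 1 library of each kind and no shared replicate numbers. The KO library's lower depth per barcode and its paired clones limit any reading of KO against WT.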

Other observations

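An IGLV1-IGLJ1 junction that cannot be assembled from the germline V and J ends alone differed in use between the libraries. Its sequence differs from the main IGLV1-IGLJ1 junction at a single base, with t in place of a. Matching from the V end stops at that base, so 2 bases are counted as further bases. Whether bases were added or 1 was substituted was not tested. The junction was singled out after its values were seen, as 1 of 6 IGLV1-IGLJ1 junctions compared, and capitals mark the bases matched to the J segment.
IGLV1-IGLJ1 junction with 2 further bases: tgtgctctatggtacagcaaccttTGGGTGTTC

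This junction made up 59 of 715 KO contigs (8.25%) and 6 of 247 WT contigs (2.43%), a ratio of 3.40 (1.49 to 7.77). In clones counted once it was 29 of 380 in KO (7.63%) and 4 of 193 in WT (2.07%), a ratio of 3.68 (1.31 to 10.3). Clones were defined only for barcodes with exactly 1 heavy chain, so the clone counts leave out contigs of other barcodes. The intervals of the other 5 junctions included 1. Over all IGLV1-IGLJ1 contigs, 86.7% in KO and 92.7% in WT had no base beyond the germline ends, and this junction is among the rest.

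Jchain, which joins IgM and IgA into polymers and marks antibody-secreting cells, was at 1.56 CPM in KO lambda-only and 167 CPM in KO kappa-only B-2-like cells, with a UMI in 0.398% and 0.302% of them. In WT B-2-like cells it was listed at 0 UMIs in lambda-only and at 1.78 CPM in kappa-only cells. In KO B-1-like cells it stood at 67.3 CPM in lambda-only and 31.7 CPM in kappa-only cells, where 28.4% of the lambda-only UMIs came from a single barcode. Barcodes with 2 IGL contigs numbered 35 in KO and 15 in WT.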
